A study of Mus musculus with 50 samples.

Results

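The 10 genes described here mark the blood vessel lining in 50 RNA-seq libraries of mouse thyroid. They were taken from the deposited counts table as the rows whose Ensembl identifiers map to their symbols, 10 of 52636 genes, and all 10 passed the filter on low counts in every fit. Of these, 6 are pan-endothelial, that is, expressed by most endothelial cells: Pecam1 (ENSMUSG00000020717), Cdh5 (ENSMUSG00000031871), Kdr (ENSMUSG00000062960), Flt1 (ENSMUSG00000029648), Plvap (ENSMUSG00000034845) and Emcn (ENSMUSG00000054690). Another 2, Esm1 (ENSMUSG00000042379) and Apln (ENSMUSG00000037010), are known from tip cells, which lead vascular sprouts. The remaining 2, Gja4 (ENSMUSG00000050234) and Efnb2 (ENSMUSG00000001300), are known from arterial endothelium. The libraries form 10 groups of 5.

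All mice were male C57BL/6, of 10 to 12 weeks by the series description and 10 to 14 weeks by the treatment protocol, and each was given a single intraperitoneal antibody dose. RW, the anti-ragweed isotype control, was given at 40 mg/kg, and aJ1aJ2, which blocks the Notch ligands Jag1 and Jag2, at 20 mg/kg of each antibody. aN1aN2 blocks the receptors Notch1 and Notch2 and was given at 5 and 10 mg/kg. aN1aN2aN3 also blocks Notch3 and was given at 5, 10 and 20 mg/kg. RW, aJ1aJ2 and aN1aN2 were sampled at 15 hours and at 5 days. At 7 days there were 2 sets with separate sample IDs: RW and aJ1aJ2 in the first, aJ1aJ2 and aN1aN2aN3 in the second. The series description mentions thyroid hormone injections, and no label says which mice, if any, had them. The titles number the thyroids 1 to 5 in each group without saying how they were housed or processed, so p-values measure the spread between these samples.

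Pecam1 and Cdh5 encode adhesion molecules of endothelial junctions, Kdr and Flt1 encode receptors for VEGF, Plvap encodes the diaphragm protein of fenestrated capillaries, and Emcn encodes a sialomucin of capillary and venous endothelium. The thyroid follicle is wrapped by fenestrated capillaries, which keep contact with the hormone-producing cells through VEGF. In sprouting vessels, VEGF acting on Kdr induces Dll4 in the leading cell, Dll4 activates Notch in its neighbours, and this limits how many cells take the tip state. Notch1 signalling in endothelium also supports arterial identity. Esm1 encodes endocan, a secreted proteoglycan induced by VEGF, and Apln encodes the secreted ligand of the apelin receptor. Gja4 encodes the gap junction protein connexin 37, and Efnb2 encodes ephrin B2, a membrane ligand that separates arteries from veins.

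RefSeq start-site sequences of build GRCm38.p6 were at hand for 7 of the 10 genes. The 250 bases before the start site are shown for Esm1 and Gja4, which were lower 15 hours after aN1aN2 than in RW, and for Kdr and Emcn. In the second set at 7 days Kdr and Emcn were lower after aN1aN2aN3 than after aJ1aJ2. So were Esm1 and Apln, and the Apln window is not shown. Capitals mark TGGGAA, the core bound by RBPJ, the DNA-binding partner of Notch, and the ETS cores CGGAAG and AGGAAG, each on either strand.
Esm1, chr13:113209409-113209658, plus strand: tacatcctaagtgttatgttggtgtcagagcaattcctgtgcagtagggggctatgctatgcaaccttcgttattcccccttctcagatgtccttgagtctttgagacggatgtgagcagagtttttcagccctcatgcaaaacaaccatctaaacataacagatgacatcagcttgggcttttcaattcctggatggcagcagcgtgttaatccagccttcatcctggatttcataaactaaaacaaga
Gja4, chr4:127314040-127314289, minus strand: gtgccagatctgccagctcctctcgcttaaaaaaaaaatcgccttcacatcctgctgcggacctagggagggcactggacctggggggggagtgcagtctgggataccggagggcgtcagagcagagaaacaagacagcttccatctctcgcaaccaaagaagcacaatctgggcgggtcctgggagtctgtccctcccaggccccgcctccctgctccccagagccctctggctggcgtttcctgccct
Kdr, chr5:75978456-75978705, minus strand: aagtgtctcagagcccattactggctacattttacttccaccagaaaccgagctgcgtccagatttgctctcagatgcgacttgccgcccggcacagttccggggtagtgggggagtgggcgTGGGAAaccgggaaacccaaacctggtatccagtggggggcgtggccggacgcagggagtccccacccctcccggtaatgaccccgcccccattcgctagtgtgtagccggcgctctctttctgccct
Emcn, chr3:137340828-137341077, plus strand: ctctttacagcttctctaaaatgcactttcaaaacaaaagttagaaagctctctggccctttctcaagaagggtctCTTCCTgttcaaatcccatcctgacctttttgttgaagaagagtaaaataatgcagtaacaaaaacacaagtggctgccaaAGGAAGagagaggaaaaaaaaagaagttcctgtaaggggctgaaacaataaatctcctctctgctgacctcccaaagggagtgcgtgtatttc
None of these letters occurs in the Esm1 or Gja4 window. The Kdr window holds TGGGAA from position -128, and the Emcn window holds AGGAAG from position -93 and its reverse complement from position -174. Among 32851 RefSeq windows of the same length, 21.6% hold TGGGAA, 13.6% hold CGGAAG and 29.5% hold AGGAAG on either strand, so each letter string is common. A match is not a measured binding site, and a missing match says only that the letters are not in the window.

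Total counts ran from 15271242 to 52835846 per library (median 28329764). Markers of thyroid follicular cells, 9 genes including thyroglobulin, held 7.47% to 42.7% of counts in most libraries of the first 8 groups. The exceptions were replicate 3 of RW at 5 days (0.454%) and replicate 3 of aJ1aJ2 at 5 days (2.41%). In these 2 libraries 9 skeletal muscle genes held 11.4% and 7.86% of counts, against 0.0497% to 7.53% in the other 38 libraries of the first 8 groups. The second set at 7 days stood apart, with 1.22% to 6.73% of counts in follicular cell markers. The deposited FPKM values further divide the libraries into 2 blocks whose values were scaled together, called processing blocks here. Block 1 holds RW and aJ1aJ2 at 15 hours and both 7-day sets (30 libraries). Block 2 holds aN1aN2 at 15 hours and all 5-day groups (20 libraries). Comparisons of aN1aN2 with RW or aJ1aJ2 at 15 hours therefore cross the blocks, and treatment and block cannot be told apart there. No label or header names a batch, and libraries of 1 block need not share one. Within block 1 the sample IDs form separate series for 15 hours and each 7-day set.

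Levels are given as CPM, the read count of a gene scaled by the effective library size. They were divided by the summed length of all annotated exons of each gene in GENCODE M21, overlaps counted once. On this scale RW at 15 hours had 69.3 ± 21.4 CPM per kilobase of Plvap (SD, n = 5), which was the highest of the 10 genes, and 28.2 ± 10.8 of Esm1. Pecam1 (21.2 ± 3.63), Kdr (21.03 ± 6.20) and Cdh5 (18.9 ± 3.95) followed and overlapped one another, as did Flt1 (14.9 ± 3.17) and Emcn (14.5 ± 5.33). Efnb2 (7.38 ± 1.19) and Gja4 (6.01 ± 0.925) were lower, and Apln (1.27 ± 0.280) was the lowest. The tip gene Esm1 thus had a per-length level of the same order as the pan-endothelial genes. Its rank among them depends on the length used. For Pecam1, Kdr and Flt1 the exon length was 6228, 9030 and 13504 bases, but the longest transcript has 3441, 5924 and 6895. For Esm1 both are 2097 bases. The deposited FPKM gave another order, with Gja4 (4.04 ± 0.666) above Pecam1 (1.43 ± 0.250), and its length factor follows the genomic span of each gene, introns included (r = 0.989 on the log scale across 11800 genes), rather than exon length (r = 0.728).

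**Figure D1:**
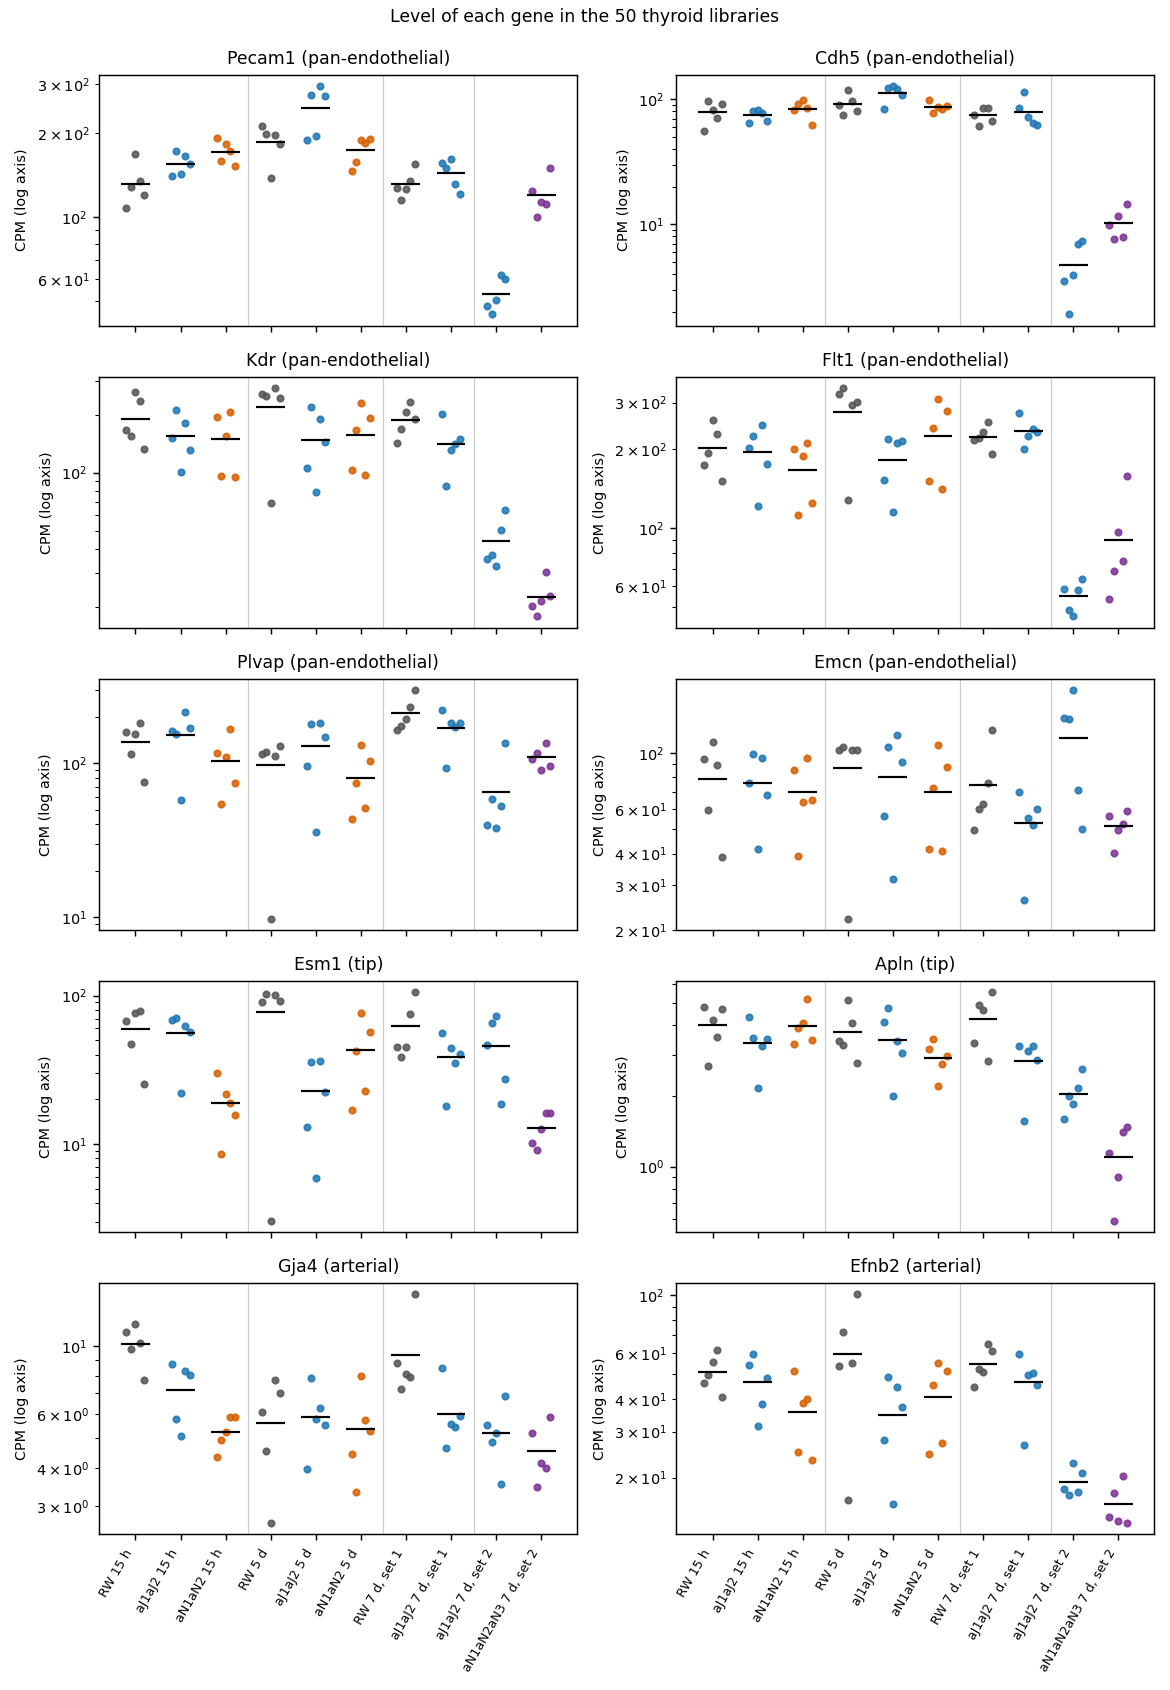
CPM of the 10 genes (log axis, 1 panel a gene) in each library (points) of the 10 groups (x axis), with the group mean as a bar. Grey lines divide times and sets. Lower means in both groups of the second 7-day set than elsewhere are seen for Pecam1, Cdh5, Kdr, Flt1, Apln, Efnb2 and, narrowly, Gja4. Esm1 is low in aN1aN2 at 15 hours, aJ1aJ2 at 5 days and aN1aN2aN3.

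At 15 hours after aN1aN2, Esm1 and Gja4 were lower than in RW in edgeR, and 0 of the 6 pan-endothelial genes passed its adjusted test; Pecam1 passed with DESeq2 only. RW libraries held 67.6, 47.3, 76.8, 78.9 and 25.5 CPM of Esm1, and aN1aN2 libraries held 30.1, 8.54, 21.7, 18.9 and 15.7 CPM. All 5 treated libraries lay below the RW mean of 59.2 ± 22.6 CPM, and the groups overlapped only through the lowest RW library, replicate 5. Esm1 fell by 1.65 on the log2 scale (SE 0.38, 95% interval -2.47 to -0.82, edgeR adjusted p = 0.0462), to a mean of 19.0 ± 7.92 CPM. In whole tissue, as here, fewer cells of a type and less RNA per cell cannot be told apart.

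Gja4 had 11.1, 9.79, 11.8, 10.2 and 7.72 CPM in RW and 4.33, 4.94, 5.25, 5.85 and 5.85 CPM after aN1aN2 at 15 hours. The groups did not overlap. The log2 fold change was -0.95 (SE 0.17, 95% interval -1.32 to -0.59, edgeR adjusted p = 0.0124). These were 2 of the 10 genes, both lower, beside 0.799% of 18513 genes called lower and 1.68% called in either direction. At an unadjusted p under 0.05 there were 4, beside 14.4% of all genes. For groups that do not overlap, the count was 1 of 10 beside 5.22% of all genes.

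The other tip gene, Apln, had 3.99 ± 0.880 CPM in RW and 3.99 ± 0.736 after aN1aN2 (log2 fold change -0.00, 95% interval -0.45 to 0.44). The other arterial gene, Efnb2, had 50.6 ± 8.17 and 35.7 ± 11.6 CPM, a log2 fold change of -0.51 (SE 0.22) with an edgeR adjusted p of 0.312. Thus within each pair of tip and arterial genes 1 passed the test and 1 did not. Among the pan-endothelial genes the log2 fold changes ran from -0.41 for Plvap (SE 0.35, and from -0.64 to -0.24 when 1 library was left out) to 0.38 for Pecam1 (SE 0.12, edgeR adjusted p = 0.143). Pecam1 was the only one of them past an unadjusted p of 0.05, was higher than the RW mean in 5 of 5 libraries, and passed with DESeq2 (log2 fold change 0.40, adjusted p = 0.0376), which called 3 of the 10 genes beside 4.55% of all genes.

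Dll4, the Notch ligand of tip and arterial cells, also fell, from 16.5 ± 2.97 CPM in RW to 8.04 ± 1.81 CPM, by 1.04 on the log2 scale (SE 0.18, edgeR adjusted p = 0.00847). Igfbp3, which encodes a binding protein for insulin-like growth factors, fell from 182 ± 73.9 CPM to 71.7 ± 11.1 CPM, by 1.35 (SE 0.28, edgeR adjusted p = 0.0283). They were 2 of 12 further tip genes, and Dll4 was also the only call among 12 further arterial genes. The median log2 fold changes of these lists were -0.22 and -0.16, beside 0.01 over all genes tested. Of 19 further pan-endothelial genes 0 passed, from Sox18 at -0.68 (SE 0.25) and Ptprb at -0.37 (SE 0.18) to Ecscr and Tek, both at 0.37, with a median of 0.03.

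The Esm1 call was near the threshold. It was lost in 8 of 10 refits that left out 1 library each, with adjusted p from 0.0271 to 0.144 in edgeR and a log2 fold change from -1.88 to -1.46. Among these it held only without RW replicate 5 or aN1aN2 replicate 1. It was also lost with no filter on low counts (edgeR adjusted p = 0.0829), with a GC correction (0.0811) and in a fit of those groups alone (0.0801). A fit with the replicate number as a block lost the Esm1 call as well, as given further below. With the muscle share as a covariate it was -1.53 (edgeR adjusted p = 0.0117). With the mean log2 CPM of 19 further pan-endothelial genes as a covariate it was -1.69 (edgeR adjusted p = 0.0322). The Gja4 call was lost only without RW replicate 1 (edgeR adjusted p = 0.0526) among those refits.

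The control levels of these 2 genes were not alike across the processing blocks. Gja4 had 10.1 ± 1.56 and 9.36 ± 3.07 CPM in the RW groups of block 1, at 15 hours and 7 days, but 5.61 ± 2.04 CPM in RW at 5 days, the control of block 2. The RW mean at 5 days includes the muscle-rich replicate 3, the lowest at 2.64 CPM. Gja4 means in the 4 groups of block 2 lay between 5.24 and 5.87 CPM. In block 1 the treated groups had 7.18 (aJ1aJ2 at 15 hours), 6.00 (aJ1aJ2, first 7-day set), 5.20 (aJ1aJ2, second set) and 4.53 CPM (aN1aN2aN3). Set against RW at 5 days, a control of the same block but another time chosen after seeing the data, aN1aN2 at 15 hours gave a Gja4 log2 fold change of -0.12 (edgeR adjusted p = 0.907). For Esm1, RW had 77.3 ± 41.9 CPM at 5 days, with 4 of 5 libraries between 90.1 and 102 CPM. Against that control its log2 fold change was -2.04 (SE 0.67, edgeR adjusted p = 0.207). Pecam1 had 132 ± 22.6 and 132 ± 14.9 CPM in the RW groups of block 1 but 186 ± 28.5 CPM in RW at 5 days. Against RW at 5 days, the Pecam1 log2 fold change of aN1aN2 at 15 hours changed sign.

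Against aJ1aJ2 at 15 hours, also of the other block, 0 of 10 genes passed after aN1aN2 in edgeR (0.130% of all genes did), with 2 of 10 at an unadjusted p under 0.05 (12.5% of all genes) and 1 by DESeq2 (2.72% of all genes). The DESeq2 call was Esm1: aJ1aJ2 libraries held 68.2, 70.3, 22.1, 62.8 and 57.3 CPM. All but replicate 3 lay above every aN1aN2 library, and the log2 fold change was -1.57 (SE 0.38, edgeR adjusted p = 0.128, DESeq2 adjusted p = 0.00475). Dll4 was lower in this comparison too (-0.999, SE 0.18, edgeR adjusted p = 0.0446).

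At 15 hours after aJ1aJ2 itself, which shares the RW libraries with the comparison above, 0 of 10 genes passed in edgeR, beside 0.573% of all genes, 1 of 10 had an unadjusted p under 0.05 (6.59% of all genes), and DESeq2 called 0 (1.43% of all genes). Esm1 had 56.1 ± 19.7 CPM against 59.2 ± 22.6 in RW (log2 fold change -0.08, 95% interval -0.88 to 0.72). Gja4 had 8.72, 5.76, 5.09, 8.32 and 8.05 CPM. These were below the RW mean in 5 of 5 libraries but overlapped RW through its replicate 5, and within this block the log2 fold change was -0.50 (SE 0.17, unadjusted p = 0.0109, edgeR adjusted p = 0.552). Pecam1 stood at 0.24 (SE 0.12), and the other 5 pan-endothelial genes ran from -0.29 for Kdr to 0.14 for Plvap.

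Other vascular genes in this comparison were mostly near 0. Among further tip genes 0 of 12 passed, from Kcne3 (-1.88, SE 0.85) and Unc5b (-0.26) to Mcam (0.53) and Cxcr4 (0.70, SE 0.62), and the median was -0.09 beside -0.03 over all genes. Among further arterial genes 0 of 12 passed, from Gkn3 (-0.60) and Sox17 (-0.25) to Gja5 (0.19) and Hey2 (0.53). Of the vessel-wall lists, the pericyte and smooth muscle list held the calls: Rgs5, a regulator of G-protein signalling in pericytes, fell by 1.14 on the log2 scale (SE 0.16, edgeR adjusted p = 0.00683), and Notch3, the receptor of mural cells, by 0.89 (SE 0.18, edgeR adjusted p = 0.0443), 2 of 8 genes.

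**Figure D2:**
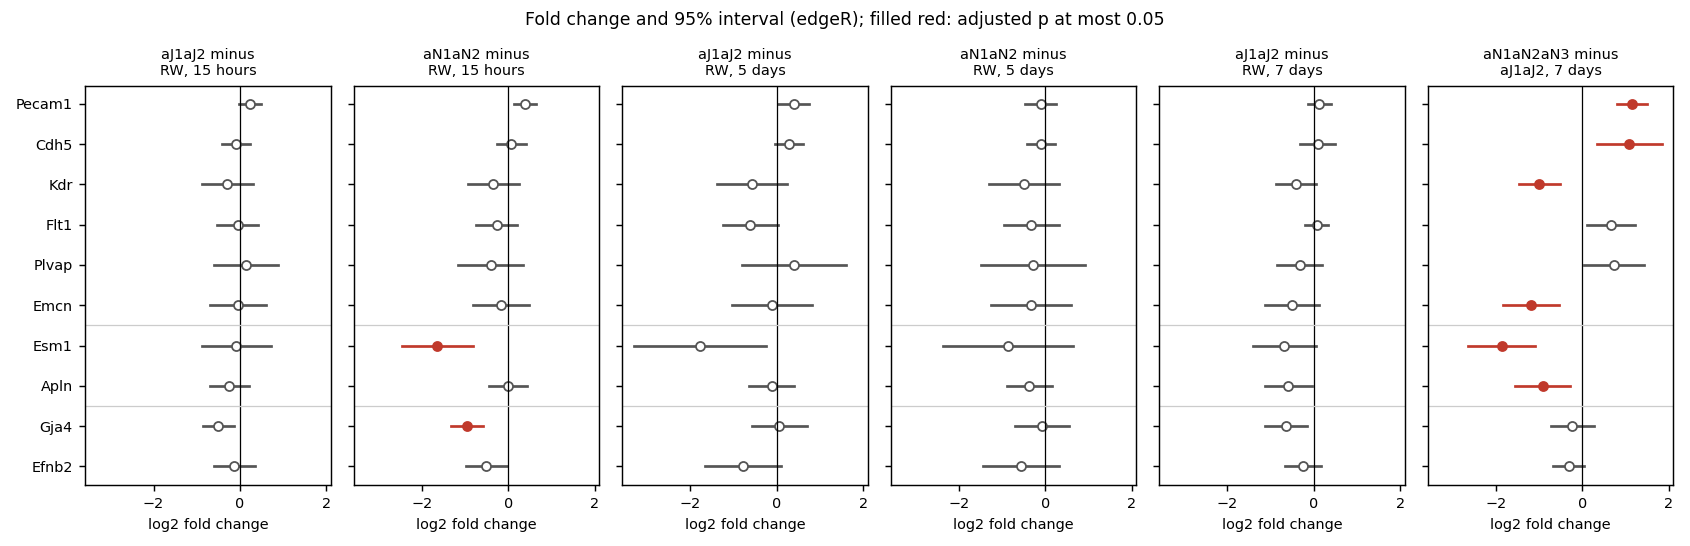
Log2 fold change (x axis) of each gene with its 95% interval in 6 comparisons, from edgeR on the groups named above each panel. Filled red points have an adjusted p of at most 0.05: Esm1 and Gja4 in aN1aN2 minus RW at 15 hours, and 6 genes in aN1aN2aN3 minus aJ1aJ2 at 7 days.

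At 5 days Esm1 was lowest after aJ1aJ2, but no gene passed the main test. RW libraries held 90.1, 102, 3.05, 100 and 91.3 CPM of Esm1, and aJ1aJ2 libraries held 13.03, 35.7, 5.94, 36.1 and 22.6 CPM. Apart from RW replicate 3, a muscle-rich library, every RW library lay above every aJ1aJ2 library. Replicate 3 of aJ1aJ2, with 5.94 CPM, was muscle-rich as well. The log2 fold change was -1.78 (SE 0.72, 95% interval -3.32 to -0.25, unadjusted p = 0.0261, edgeR adjusted p = 0.342). In all, 0 of 10 genes passed in edgeR, beside 0.179% of all genes, 2 of 10 had an unadjusted p under 0.05 (11.8% of all genes), and DESeq2 called 0 (2.83% of all genes).

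The Esm1 value moved when RW replicate 3 was left out or muscle share was modelled. Without RW replicate 3 the Esm1 log2 fold change was -2.08 (SE 0.51, edgeR adjusted p = 0.0720). Over all refits that left out 1 library it ran from -2.08 to -1.54, with edgeR adjusted p from 0.0720 to 0.535. With the muscle share as a covariate it was -1.52 (SE 0.40, edgeR adjusted p = 0.0453), and 3 of 10 genes passed, Esm1, Flt1 (-0.50) and Pecam1 (0.42), beside 5.66% of all genes. With library quality weights in limma it was -1.72 (SE 0.29, adjusted p = 0.00136), and 6 of 10 genes passed beside 18.9% of all genes. Pecam1 and Cdh5, both at 0.41, were then higher, and Kdr (-0.56), Flt1 (-0.64), Esm1 and Efnb2 (-0.68) lower.

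Among the pan-endothelial genes at 5 days 0 of 6 passed in edgeR, and all groups overlapped. Pecam1 had 189, 275, 196, 296 and 274 CPM after aJ1aJ2 and 212, 199, 139, 197 and 184 in RW. All 5 treated libraries lay above the RW mean, with overlap, and the log2 fold change was 0.39 (SE 0.17, edgeR adjusted p = 0.375). Cdh5 stood at 0.28 (SE 0.15). Flt1 had 152, 217, 115, 210 and 214 CPM against 324, 341, 127, 293 and 301 in RW, so that again only RW replicate 3 overlapped (-0.62, SE 0.30, edgeR adjusted p = 0.444). Kdr stood at -0.58 (SE 0.38), Emcn at -0.12 and Plvap at 0.40 (SE 0.56).

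Of the arterial genes, Efnb2 had 34.9 ± 13.2 CPM after aJ1aJ2 and 59.4 ± 30.6 in RW (-0.78, SE 0.41, edgeR adjusted p = 0.485, or -0.51 without RW replicate 5), while Gja4 had 5.87 ± 1.40 and 5.61 ± 2.04 (0.06, 95% interval -0.57 to 0.69). Apln had 3.47 ± 1.05 and 3.74 ± 0.915. Among further arterial genes, Hey1 (-0.68, SE 0.19) and Sema3g (-0.67, SE 0.13, edgeR adjusted p = 0.0506) were the lowest, Bmx (0.24) and Notch4 (0.39) the highest, and 0 of 12 passed. Among further tip genes 0 of 12 passed and the median was 0.27 beside -0.06 over all genes, from Unc5b (-0.55) and Nid2 (-0.49) to Mcam (0.56) and Cxcr4 (1.27, SE 0.70). Of 19 further pan-endothelial genes 0 passed, from Ptprb (-0.46) and Eng (-0.28) to Egfl7 (0.62) and Cldn5 (0.78, SE 0.41).

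After aN1aN2 at 5 days, against the same RW libraries, Esm1 had 16.9, 42.6, 75.9, 22.6 and 56.4 CPM. All 5 lay below every RW library but replicate 3, and 3 of them lay above the highest aJ1aJ2 library. The lowest values, of aN1aN2 replicates 1 and 4, came from libraries with 7.09% and 4.79% of counts in muscle genes. The log2 fold change was -0.87 (SE 0.70, 95% interval -2.37 to 0.64), or -1.17 (SE 0.50, edgeR adjusted p = 0.275) without RW replicate 3. In edgeR 0 of 10 genes passed, as did 0 of all genes (a share of 0%), 0 of 10 had an unadjusted p under 0.05 (10.0% of all genes), and DESeq2 called 0 (2.18% of all genes). The log2 fold changes of the other 9 genes ran from -0.56 for Efnb2 (SE 0.41, or -0.30 without RW replicate 5) to -0.08 for Gja4 (SE 0.29). Among further tip genes 0 of 12 passed, from Igfbp3 (-0.55, SE 0.54) and Plaur (-0.49) to Kcne3 (1.34, SE 0.58) and Cxcr4 (1.48, SE 0.70). Among further arterial genes 0 of 12 passed, from Nrp1 (-0.33, SE 0.20) and Dll4 (-0.32, SE 0.23) to Fbln5 (0.29) and Bmx (0.88, SE 0.48). Of 19 further pan-endothelial genes 0 passed, from Tal1 (-0.22) and Tek (-0.21) to Cldn5 (0.07) and Vwf (0.49, SE 0.22).

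Between aN1aN2 and aJ1aJ2 at 5 days 0 of 10 genes passed in edgeR (0% of all genes), 2 of 10 had an unadjusted p under 0.05 (4.22% of all genes), and DESeq2 called 0 (0.266% of all genes). The 2 were Pecam1 (-0.50, SE 0.17, edgeR adjusted p = 0.924) and Cdh5 (-0.38, SE 0.15), both lower than the aJ1aJ2 mean in 5 of 5 aN1aN2 libraries. Esm1 stood at 0.92 (SE 0.70, 95% interval -0.59 to 2.42).

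Whether an effect changed between times was tested in a fit of 40 libraries. From 15 hours to 5 days the aJ1aJ2 effect on Esm1 shifted by -1.73 on the log2 scale (SE 0.78, 95% interval -3.33 to -0.14, unadjusted p = 0.0341, edgeR adjusted p = 0.345). The aN1aN2 effect on Esm1 shifted by 0.79 (SE 0.78) and that on Gja4 by 0.87 (SE 0.37, unadjusted p = 0.0230, edgeR adjusted p = 0.203). Every shift of the aN1aN2 effect rests on its comparison with RW at 15 hours, which crosses the processing blocks. The Esm1 shift was 0.45 without replicate 3 of RW at 5 days and 0.48 without replicate 3 of aN1aN2 at 5 days. From 15 hours to 7 days the aJ1aJ2 effect on Esm1 shifted by -0.63 (SE 0.78), or -0.33 without RW replicate 5 at 7 days. None of the 10 genes passed in these 3 contrasts in edgeR, beside 0.981%, 3.14% and 0.300% of all genes for aJ1aJ2 to 5 days, aN1aN2 to 5 days and aJ1aJ2 to 7 days. An unadjusted p under 0.05 was reached by 1, 2 and 0 genes, beside 12.2%, 16.5% and 7.40% of all genes, and DESeq2 called 0 in each, beside 3.55%, 5.95% and 0.803%. Without replicate 3 of RW at 5 days the shift of the aN1aN2 effect on Pecam1, also across the blocks, was -0.62 (edgeR adjusted p = 0.0415).

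In the first set at 7 days both groups belong to block 1. The tip and arterial genes, and the pan-endothelial Kdr, Plvap and Emcn, were lower on average after aJ1aJ2, but 0 of 10 genes passed in edgeR. The share over all genes was also 0%, 2 of 10 had an unadjusted p under 0.05 (11.6% of all genes), and DESeq2 called 0 (2.46% of all genes). Gja4 had 8.77, 7.23, 8.09, 7.93 and 14.8 CPM in RW and 8.48, 4.64, 5.57, 5.42 and 5.89 after aJ1aJ2. All treated libraries lay below the RW mean, and replicate 1 alone fell within the RW range (-0.64, SE 0.22, unadjusted p = 0.0155, edgeR adjusted p = 0.312). Without RW replicate 5, the library with 14.8 CPM, the log2 fold change was -0.42 (edgeR adjusted p = 0.326). This is the same sign as at 15 hours, in other mice with a separate series of sample IDs.

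Apln had 3.37, 4.87, 4.63, 2.82 and 5.53 CPM in RW and 3.28, 1.57, 3.12, 3.28 and 2.83 after aJ1aJ2 at 7 days. The groups overlapped only through RW replicate 4 (-0.59, SE 0.25, unadjusted p = 0.0362, edgeR adjusted p = 0.399). Esm1 had 45.3, 38.6, 45.1, 75.4 and 105 CPM in RW and 55.6, 18.0, 44.1, 35.3 and 40.7 after aJ1aJ2, with wide overlap (-0.68, SE 0.33, edgeR adjusted p = 0.455), and stood at -0.40 without RW replicate 5. Efnb2 stood at -0.24 (SE 0.19). The lowest aJ1aJ2 value of Esm1, Apln, Gja4 and Efnb2 came from the same library, replicate 2, which had 7.53% of its counts in muscle genes. The pan-endothelial genes ran from -0.50 for Emcn (SE 0.28, or -0.24 without RW replicate 5) to 0.13 for Pecam1 (SE 0.12). Kdr stood at -0.42 (SE 0.21) and Plvap at -0.33 (SE 0.23), both lower than Efnb2. All 9 skeletal muscle genes were higher after aJ1aJ2, with a median log2 fold change of 1.67 and 0 called. Their part in these values was not tested here.

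Further tip genes at 7 days had a median log2 fold change of -0.23 beside 0.01 over all genes, from Cxcr4 (-0.98, SE 0.42) and Ramp3 (-0.67, SE 0.26) to Angpt2 (0.09) and Adm (0.35), with 0 of 12 called. Further arterial genes lay on both sides of 0. Hey1 (-0.72, SE 0.16, edgeR adjusted p = 0.154) and Gkn3 (-0.58) were lowest, Sox17 (0.48) and Gja5 (0.66) highest, with 0 of 12 called. Of 19 further pan-endothelial genes 0 were called, from Icam2 (-0.43) and Clec14a (-0.40) to Cldn5 (0.44) and Vwf (0.58, SE 0.18).

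The second set at 7 days gave most of the calls. Against aJ1aJ2 of the same set, aN1aN2aN3 libraries had more Pecam1 and Cdh5 and less Kdr, Emcn, Esm1 and Apln, 6 of 10 genes beside 19.6% of 18450 genes (9.19% higher and 10.4% lower). At an unadjusted p under 0.05 there were 8, beside 35.6% of all genes, and DESeq2 called 6 (26.4% of all genes). The set has no RW library here, so these values compare the 2 antibody sets with each other. Follicular cell markers held 3.86% to 6.73% of counts after aN1aN2aN3 and 1.22% to 2.98% after aJ1aJ2. Fat cell markers held 0.0266% to 0.129% and 0.238% to 0.387%. Fits with the muscle share or the further pan-endothelial genes as a covariate called 26.2% and 21.5% of all genes. Beyond these fits, the part of tissue composition in the differences was not tested.

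Esm1 had 46.3, 65.5, 72.3, 18.5 and 27.3 CPM after aJ1aJ2 and 10.2, 9.08, 12.6, 16.2 and 16.1 after aN1aN2aN3. The groups did not overlap. Esm1 fell by 1.87 on the log2 scale (SE 0.35, 95% interval -2.64 to -1.10, edgeR adjusted p = 0.00511). Apln had 1.60, 1.99, 1.85, 2.16 and 2.61 CPM against 1.14, 0.589, 0.901, 1.40 and 1.48. These groups did not overlap either (-0.91, SE 0.29, edgeR adjusted p = 0.0465), but the call was lost in 10 of 10 refits without 1 library (adjusted p 0.0523 to 0.112).

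The VEGF receptor gene Kdr had 35.6, 37.1, 32.9, 50.6 and 64.1 CPM after aJ1aJ2 and 20.4, 17.9, 21.6, 30.6 and 22.9 after aN1aN2aN3, without overlap (-0.99, SE 0.21, edgeR adjusted p = 0.00933). Emcn had 138, 136, 177, 71.3 and 49.9 CPM against 56.4, 40.1, 49.6, 52.2 and 58.7. Only aJ1aJ2 replicate 5 overlapped (-1.18, SE 0.30, edgeR adjusted p = 0.0184), and the call was lost without aN1aN2aN3 replicate 2 (edgeR adjusted p = 0.0518). Without that library 3 of the 10 genes passed.

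Pan-endothelial genes thus changed in both directions. Pecam1 had 48.0, 44.8, 50.3, 61.9 and 59.98 CPM after aJ1aJ2 and 124, 100, 114, 111 and 150 after aN1aN2aN3. The groups were far apart (1.15, SE 0.16, edgeR adjusted p = 0.00166). Cdh5 had 3.49, 1.90, 3.93, 7.01 and 7.42 CPM against 9.88, 7.62, 11.7, 7.84 and 14.6, just without overlap (1.09, SE 0.35, edgeR adjusted p = 0.0456), and the call was lost in 8 of 10 refits without 1 library. Flt1 (0.67, SE 0.26, edgeR adjusted p = 0.0850) and Plvap (0.73, SE 0.32, edgeR adjusted p = 0.128) did not pass. Without aJ1aJ2 replicate 5, the library with 135 CPM of Plvap, Plvap stood at 1.18 (edgeR adjusted p = 0.00290). Flt1 stood at 0.81 (edgeR adjusted p = 0.0382) without aN1aN2aN3 replicate 1 and at 0.38 (edgeR adjusted p = 0.202) without replicate 5. The arterial genes Gja4 (-0.23, SE 0.23) and Efnb2 (-0.31, SE 0.17) did not pass either. In all, 5 of 10 genes had groups that did not overlap, beside 15.0% of all genes.

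Other vascular genes of that comparison also moved both ways, as did 19.6% of all genes (9.19% higher and 10.4% lower), and nothing particular to these lists is read from their counts. Of 18 further pan-endothelial genes tested, Robo4 (1.46), Esam (0.98) and S1pr1 (1.004) were higher and Ecscr (-0.81), Icam2 (-0.87) and Myct1 (-1.53) lower. Of 12 further tip genes Plaur (1.88), Igfbp3 (1.17) and Mcam (0.95) were higher. Of 12 further arterial genes Gja5 (-0.66), Nrp1 (-1.33), Cxcl12 (-0.59) and Gkn3 (-1.73) were lower, with a list median of -0.55 beside -0.07 over all genes. Among 8 secreted ligands tested, Vegfa (-0.60) and Angpt1, the ligand of the Tie2 receptor (-2.06), were lower beside Apln. Among 7 venous genes Ephb4 (0.91), the receptor of ephrin B2, and Selp (1.90) were higher and Aplnr (-1.56), the apelin receptor, lower. All genes named here had an edgeR adjusted p of at most 0.05.

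The level of some genes in the second set was unlike that in the other libraries, given here as a description with no test. Cdh5 ran from 1.90 to 14.6 CPM in its 10 libraries and from 55.6 to 128 CPM in the other 40. Under the same antibody and dose at the same 7 days, the aJ1aJ2 mean was 79.8 ± 21.6 CPM in the first set and 4.75 ± 2.38 in the second. Efnb2 had group means of 19.2 and 15.8 CPM in the second set and of 34.9 to 59.4 CPM elsewhere, and its library values overlapped those of replicate 3 of RW and of aJ1aJ2 at 5 days (16.4 and 15.9 CPM). Kdr ran from 17.9 to 64.1 CPM in the second set and from 69.4 to 275 CPM elsewhere. Pecam1, Flt1, Apln and Gja4 also had lower means in both groups of this set than in any other group. For Gja4 both groups overlapped libraries of other groups. For Pecam1 and Flt1 only aN1aN2aN3 did. The aJ1aJ2 libraries ran from 44.8 to 61.9 CPM of Pecam1 and from 46.0 to 64.0 CPM of Flt1, against lowest values of 108 and 112 CPM in the first 8 groups. For Apln only aJ1aJ2 overlapped, as aN1aN2aN3 reached 1.48 CPM and the lowest value of the first 8 groups was 1.57 CPM. Emcn went the other way in aJ1aJ2, whose mean of 114 ± 52.1 CPM was above the means of 52.6 to 86.8 CPM of the first 8 groups. The 6 pan-endothelial genes therefore did not scale together in this set.

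To set the tip and arterial genes beside the pan-endothelial ones, the count of each was expressed as a percent of the summed counts of the 6 pan-endothelial genes in the same library, with no test. Esm1 was 7.05 ± 1.88% in RW and 6.78 ± 1.71% in aJ1aJ2 at 15 hours, but 2.49 ± 0.737% in aN1aN2. The aN1aN2 values, 1.55% to 3.46%, lay below all RW values, 4.18% to 8.92%. At 5 days it was 7.25 ± 3.73% in RW, or 8.90 ± 0.548% without replicate 3 (n = 4), 2.33 ± 0.927% in aJ1aJ2 and 5.06 ± 1.74% in aN1aN2. The aJ1aJ2 value keeps its own muscle-rich replicate 3 (1.01%).

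At 7 days Esm1 was 6.66 ± 2.26% of the pan-endothelial sum in RW and 4.60 ± 1.14% in aJ1aJ2 of the first set. In the second set it was 13.7 ± 6.92% in aJ1aJ2 and 3.16 ± 0.526% in aN1aN2aN3. The divisor was low in these 2 groups. Their median summed CPM of the 6 pan-endothelial genes was 327 and 383, against 758 to 1075 in the first 8 groups. In CPM, Esm1 had 46.0 ± 23.4 in aJ1aJ2 of the second set and 38.7 ± 13.8 in aJ1aJ2 of the first. Apln and Gja4 have the same divisor. The Esm1 means of the 3 RW groups lay between 6.66% and 7.25%, but RW at 5 days had 8.90% without replicate 3. The lowest means were those of aN1aN2 at 15 hours, aJ1aJ2 at 5 days and aN1aN2aN3 at 7 days. Efnb2 varied less, with means from 3.79% (aJ1aJ2 at 5 days) to 6.25% (RW at 15 hours). Apln means ran from 0.269% (aN1aN2aN3) to 0.607% (aJ1aJ2 of the second set), and Gja4 means from 0.581% (RW at 5 days) to 1.53% (aJ1aJ2 of the second set).

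**Figure D3:**
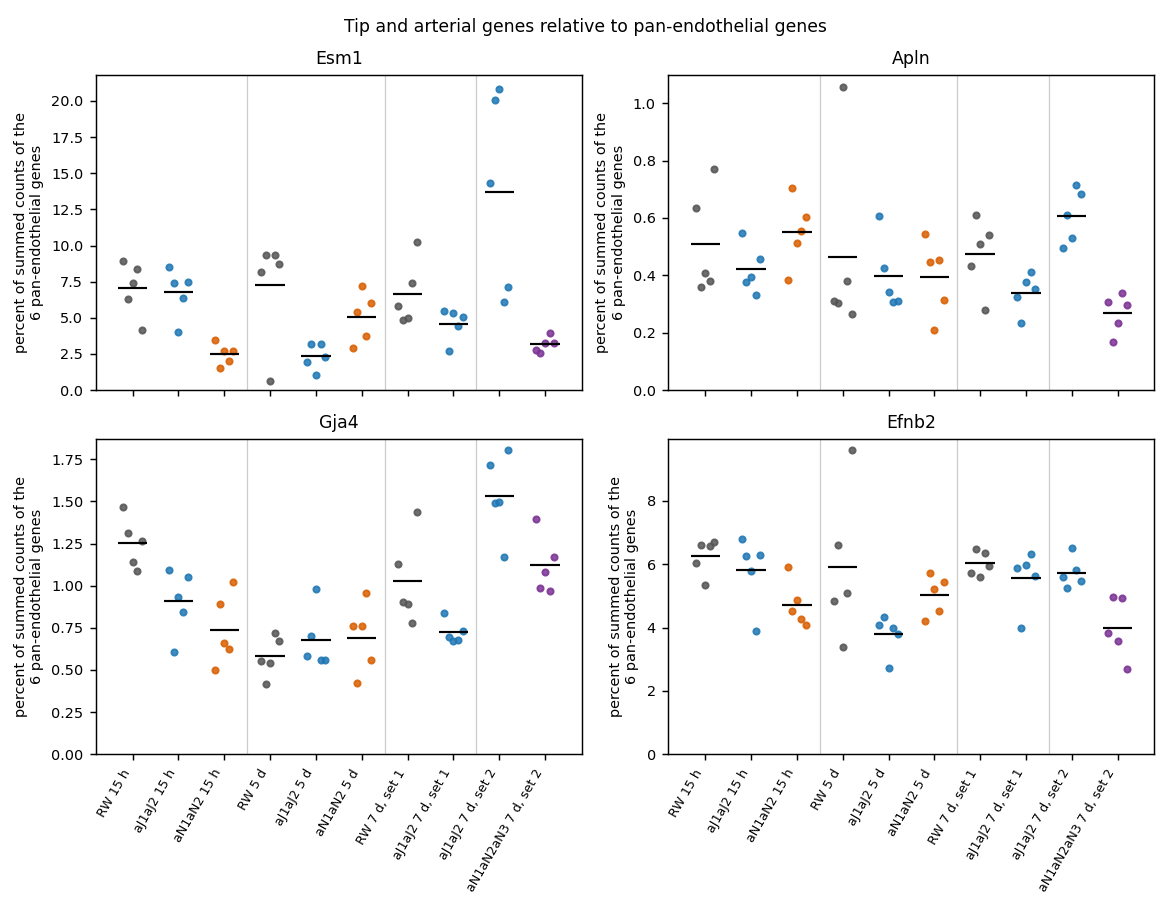
Counts of Esm1, Apln, Gja4 and Efnb2 as a percent of the summed counts of the 6 pan-endothelial genes (y axis) in each library (points) by group (x axis), with the group mean as a bar. Esm1 is at 2.49% on average in aN1aN2 at 15 hours and 2.33% in aJ1aJ2 at 5 days against 7.05% and 7.25% in the RW groups of those times. Without its low replicate 3, RW at 5 days is at 8.90%.

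Within groups, most of the 10 genes varied with the share of skeletal muscle counts. What part muscle share has in the differences between groups was not tested beyond the covariate fits above. Over 50 libraries with group means removed, log2 CPM of Esm1 had a Pearson r of -0.755 with the log2 muscle share (Spearman -0.730). Both had a permutation p of 1e-05, the smallest that 100000 permutations within groups can give, and 3.33e-05 after Benjamini-Hochberg adjustment over 10 genes. The r was -0.766 without the 2 libraries farthest in muscle share, -0.746 in block 1 and -0.816 in block 2. Emcn (r = -0.776, Spearman -0.725), Efnb2 (-0.685, -0.659), Plvap (-0.632, -0.629), Kdr (-0.578, -0.512) and Flt1 (-0.565, -0.534) were also lower where muscle share was higher (adjusted permutation p of Pearson r from 3.33e-05 to 0.000629). Without the 2 farthest libraries these r ran from -0.763 for Emcn to -0.566 for Flt1.

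For Kdr and Flt1 r was -0.204 and -0.235 in block 1, -0.553 and -0.423 in block 1 without the second 7-day set, and -0.890 and -0.875 in block 2. The difference between blocks was not tested. Gja4 had r = -0.399 (Spearman -0.358, adjusted permutation p = 0.0141 and 0.0235). Cdh5 went the opposite way, with r = 0.549 (Spearman 0.517, adjusted permutation p = 0.000629 and 0.00105), 0.442 without the 2 farthest libraries, 0.703 in block 1 and 0.279 in block 2. Pecam1 (r = -0.284, Spearman -0.282, adjusted permutation p = 0.0932) and Apln (r = -0.126, Spearman -0.0890, adjusted permutation p = 0.385) did not pass. Pecam1 had r = 0.125 in block 1, -0.177 there without the second 7-day set, and -0.749 in block 2.

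**Figure D4:**
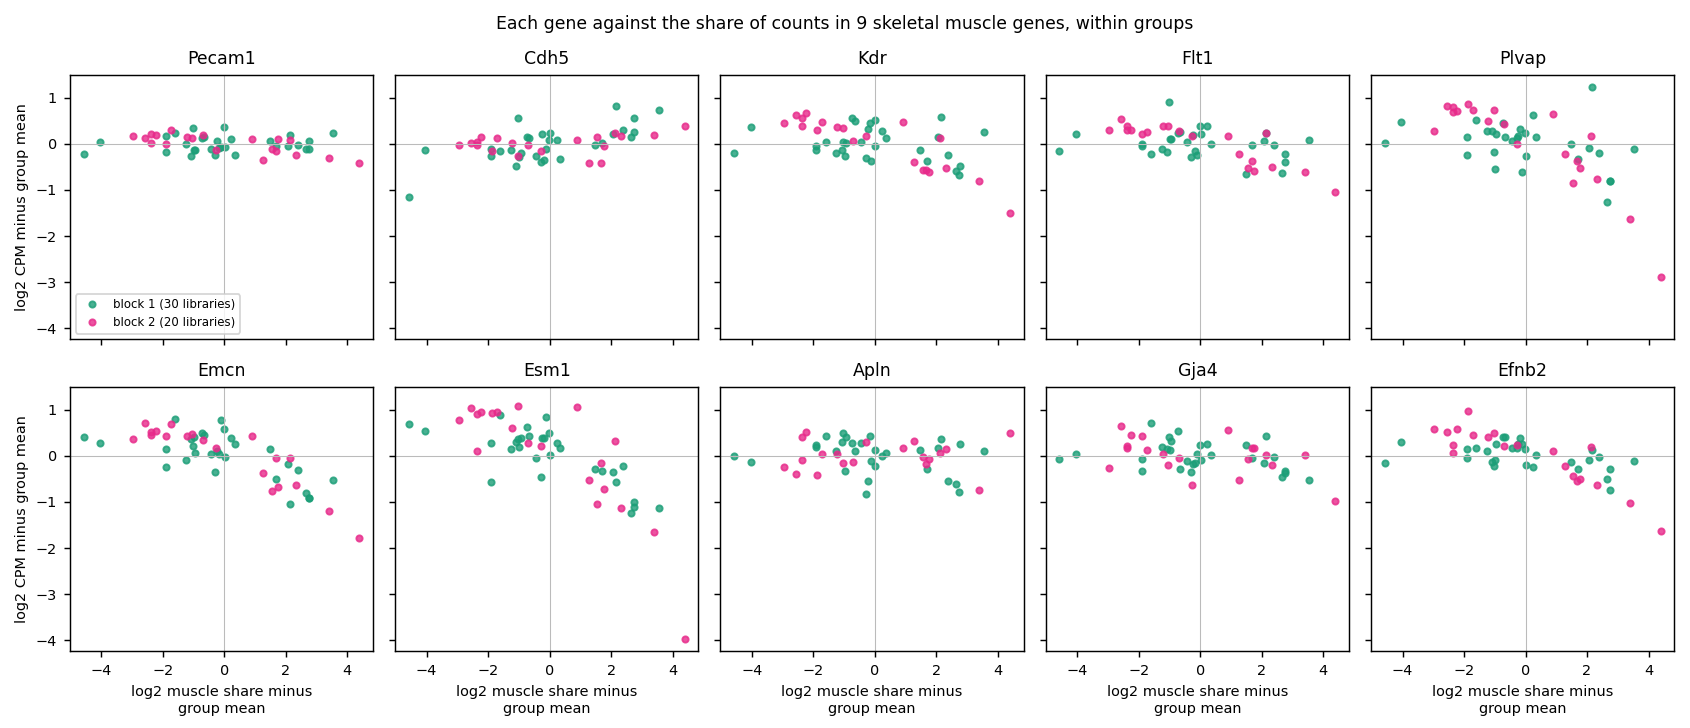
Deviation of log2 CPM from the group mean (y axis) against the deviation of the log2 share of counts in 9 skeletal muscle genes (x axis) for each of 50 libraries, 1 panel a gene, coloured by processing block. Esm1, Emcn, Plvap and Efnb2 fall to the right (r = -0.755, -0.776, -0.632 and -0.685), and Cdh5 rises (r = 0.549).

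The 10 genes also grouped by how they varied between libraries of the same group. Over the 50 libraries with group means removed, Esm1 and Emcn had the highest pairwise Pearson r (0.921), then Kdr and Plvap (0.895) and Esm1 and Efnb2 (0.858), while Cdh5 with Emcn had the lowest (-0.415). Apln was not above 0.235 with any other of the 10. These values are descriptions, since libraries share tissue composition. Across all genes of the level table, those most like the mean of the pan-endothelial genes were Col13a1 (r = 0.920), Parm1 (0.911), Lta (0.910), Btnl9 (0.903) and Cx3cl1 (0.902). Scg5 (0.954), Hmgcll1 (0.949) and Plscr2 (0.949) were most like Esm1, and Tram2 (0.944), Magi1 (0.942) and Mcc (0.939) most like Efnb2. For Gja4 the highest were Atpif1 (0.709), Dok1 and Kctd13 (both 0.708), and for Apln Fbln7 (0.514), Tmem119 (0.514) and Naif1 (0.512).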

How the data were processed

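RNA of 50 thyroids was sequenced as single-end reads of 50 bases, per the labels' protocols. The submitters' processing notes name GSNAP and limma without versions; for the counting program, build, annotation and strand setting, nothing is stated in the labels or headers. Whole-number read counts per gene, deposited by the authors, were analysed without change. The deposited FPKM values served to find the processing blocks: the ratio of the library factor behind them to the median-of-ratios size factor varied by 8.70% over 50 libraries and 0% within each block. Because FPKM follows genomic span, levels between genes were given per exon length instead, a choice made after seeing the data.

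Symbols were matched by Ensembl ID to GENCODE M21, and 0 columns lacked a library. None of the 10 genes shares exons with another M21 gene, but an opposite-strand gene overlaps the span of Cdh5, Plvap and Esm1, and 3 same-strand genes (E230020D15Rik, Gm45074 and Gm45073) overlap that of Efnb2. Groups came from the titles. Over 100 replicate pairs within groups the smallest chi-square per degree of freedom of the counts was 11.4, so no library duplicated another of its group. Pairs from different groups were not compared in this way. Tests used edgeR 4.0.16 in R 4.3.3 (TMM, filterByExpr with minimum count 10 and total 15, robust glmQLFit), with the groups of a time or set fitted together, interactions in 40 libraries, two-sided p-values and Benjamini-Hochberg adjustment over all genes tested at 0.05. The script was tested on simulated data. Alternatives were RLE scaling, no filter, DESeq2 1.42.0, voom quality weights (limma 3.58.1), muscle and endothelial covariates, other sample sets, a replicate block, leaving out libraries, GC correction and a control of the same block. The last 2 were chosen after seeing the data. The genes and lists were chosen with earlier results of these data known. Named genes are the 10 members, list genes past the threshold or else the 2 highest and 2 lowest of the lists described, and the closest genes by correlation (prior count 2).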

Additional observations from a re-analysis of the deposited data

Results flagged for a closer look

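In 9 of 100 gene and group combinations 1 of the 5 libraries lay far from the rest by Dixon's criterion (0.71 for 5 samples). For independent, normally distributed values about 1 in 20 would. The genes share libraries and vary together, so the 9 cannot be set against that rate. Replicate 3 of RW at 5 days gave 5 of the 9, all low: Kdr at 69.4 CPM (next 244), Flt1 at 127 (next 293), Plvap at 9.76 (next 112), Emcn at 22.2 (next 102) and Esm1 at 3.05 (next 90.1). Its counts included 11.4% muscle genes and 0.454% follicular cell genes. The same library had the highest Cdh5 and Apln of its group, at 119 and 5.13 CPM.

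Esm1 in replicate 3 of aJ1aJ2 at 15 hours was low at 22.1 CPM (next 57.3), and that library held 5.28% muscle counts, the most of its group. Apln in replicate 2 of aJ1aJ2 in the first 7-day set was low at 1.57 CPM (next 2.83), with 7.53% muscle counts. Gja4 in replicate 5 of RW in the first 7-day set was high at 14.8 CPM (next 8.77). Plvap in replicate 5 of aJ1aJ2 in the second set was high at 135 CPM (next 58.3).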

How the results depend on the processing

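Counts of called genes that changed were few. For aN1aN2 against RW at 15 hours (2 called), no filter, GC correction and a fit of only those groups each left 1, a control of the same block 0, and leaving out libraries 0 to 2; with that control Pecam1 changed sign (log2 fold change -0.13). For aN1aN2 against aJ1aJ2 at 15 hours (0 called), DESeq2, quality weights and the muscle covariate each called 1. At 5 days quality weights called 6 and the muscle covariate 3 for aJ1aJ2 against RW, and quality weights 1 for aN1aN2 against aJ1aJ2 (0 called in both). For aN1aN2aN3 against aJ1aJ2 (6 called), leaving out libraries gave 3 to 6. The aJ1aJ2 effect between 15 hours and 5 days had 2 calls with quality weights, and the aN1aN2 effect 0 to 1 when libraries were left out (0 called in both). Another 74 counts with all libraries kept their value or stayed within 1.5 times. All log2 ratios to pan-endothelial genes moved by less than the pooled SD of the groups compared. That is a loose limit at 5 days, where the SD was 1.30 for Esm1 in aJ1aJ2 against RW. Without 1 library this Esm1 difference ran from -2.05 to -1.01, and that of aN1aN2 against RW from -0.89 to 0.09. Over all genes, DESeq2 called 842 where edgeR called 311 for aN1aN2 against RW at 15 hours, 522 against 33 for aJ1aJ2 against RW at 5 days, and 417 against 0 for the same antibodies at 7 days. The causes were not tested.

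With the replicate number as a block, aN1aN2 against RW at 15 hours kept 1 call, since Esm1 was lost (edgeR adjusted p = 0.0923). In the second set Emcn (0.0699) and Apln (0.0812) were lost. The labels do not say whether the numbers pair the samples, and these correlations cannot decide it. In no comparison did all 5 same-numbered pairs correlate above 0.1 (range -0.585 to 0.719). But 4 of 5 did for aN1aN2 against RW at 15 hours and for aJ1aJ2 against RW at 5 days. Apln, at 0.589 to 5.53 CPM, is limited most by depth.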

Other observations

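Replicate 3 of aJ1aJ2 at 5 days resembled replicate 3 of RW at 5 days: it had 7.86% muscle counts and 2.41% follicular cell counts, the lowest Esm1 (5.94 CPM), Plvap (35.8 CPM) and Emcn (31.7 CPM) of its group and the highest Cdh5 (128 CPM). Across mural genes, Rgs5 fell after aJ1aJ2 at 15 hours and was higher in aN1aN2 than in aJ1aJ2 at that time (log2 fold change 0.92, edgeR adjusted p = 0.0403, across the processing blocks), the opposite order to Esm1 and Dll4. In the second 7-day set Rgs5 (-1.27, edgeR adjusted p = 0.00966) and Cspg4 (-1.94, edgeR adjusted p = 0.0255), both known from pericytes, were lower after aN1aN2aN3 than after aJ1aJ2.

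Over all genes in that set, the log2 fold change varied with the GC content of the longest transcript (r = 0.199 across 18412 genes, which are not independent), with a median of -0.32 in the 20% of genes lowest in GC and 0.12 in the 20% highest. Of the 10 genes, Emcn has the lowest GC content, 40.7%, and Esm1 the next, 43.4%. With a GC correction their log2 fold changes were -0.82 (edgeR adjusted p = 0.0357) and -1.65 (edgeR adjusted p = 0.00636).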
